A study of Mus musculus with 12 samples.

Results

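Treg signature genes were examined in CD4+ T cells that had been sorted as negative for the YFP reporter of *Foxp3*. The 8 genes were *Foxp3*, *Ikzf2*, *Ikzf4*, *Nrp1*, *Lrrc32*, *Gpr83*, *Itgae* and *Capg*, taken by name from the 26608 genes listed in each count file, and all 8 were listed and tested. They were chosen as genes that could mark former Treg cells in a FOXP3-negative sort. No fate reporter was read in these libraries, so the origin of the cells was not measured.

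The study sequenced RNA from 12 mice, 4 in each of 3 groups, with 1 library per mouse. All mice were 14 weeks old, on the B6 background, and all carried Foxp3-Cre, a knock-in allele that places YFP and iCre under the control of *Foxp3*. WT mice were Foxp3-Cre WT. DKO-moderate and DKO-severe mice were both *Foxp3-Cre Tet2/3fl/fl*, so *Tet2* and *Tet3*, whose enzymes oxidize 5-methylcytosine, were deleted only where Foxp3-Cre had been active. Conventional CD4+ T cells of the same mice were thus expected to keep both genes, although the study notes that this Cre has been considered leaky. The DKO groups shared a genotype and were divided by the total number of leukocytes in spleen and peripheral lymph nodes, which is itself an outcome of the disease. Cells of the spleen and of the cervical and inguinal nodes were pooled before CD4+ YFP(FOXP3)- cells were sorted. FOXP3+ cells were not analysed here, so no level below can be set against that of a Treg cell.

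Treg cells are CD4+ T cells that restrain immune responses and depend on the transcription factor FOXP3. TET enzymes keep regulatory DNA of the *Foxp3* gene demethylated, and Treg cells that lose FOXP3 can persist as ex-Treg cells. Of the signature genes, *Foxp3*, *Ikzf2* (Helios) and *Ikzf4* (Eos) encode nuclear factors, *Nrp1*, *Lrrc32* (GARP), *Gpr83* and *Itgae* (CD103) encode cell surface proteins, and *Capg* encodes an actin capping protein. None of these genes is restricted to Treg cells in every setting. Activated T cells can express Helios and neuropilin-1, for example.

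Like the tested genes as a whole, the signature did not move as 1 block. In DKO-severe against WT cells, *Ikzf2*, *Nrp1* and *Capg* rose 5.16-, 2.87- and 4.22-fold, whereas *Foxp3*, *Gpr83* and *Ikzf4* fell 4.30-, 3.22- and 1.71-fold, and *Lrrc32* and *Itgae* did not pass the test. In DKO-moderate against WT cells, *Ikzf2* and *Capg* rose 3.33- and 2.19-fold and the other 6 did not pass. Between the DKO groups, *Capg* was 1.93-fold higher and *Gpr83* 4.64-fold lower in DKO-severe cells. These are fits of raw read counts by edgeR's quasi-likelihood test with Benjamini-Hochberg adjustment over 16035 tested genes and a threshold of 0.05.

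These counts stood against a broad change over all genes. In DKO-severe against WT cells, 26.6% of tested genes rose and 25.9% fell, beside 3 rises and 3 falls among the 8 signature genes. In DKO-moderate against WT cells the shares were 12.3% and 4.74%, beside 2 rises and no fall. Between DKO-severe and DKO-moderate cells they were 9.41% and 10.7%, beside 1 rise and 1 fall. The 3 comparisons share libraries and are given side by side for that reason. The median log2 fold change of the 8 genes was -0.29, 0.37 and 0.18 in these comparisons, beside medians over all genes of -0.01, 0.00 and -0.03.

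**Figure D1:**
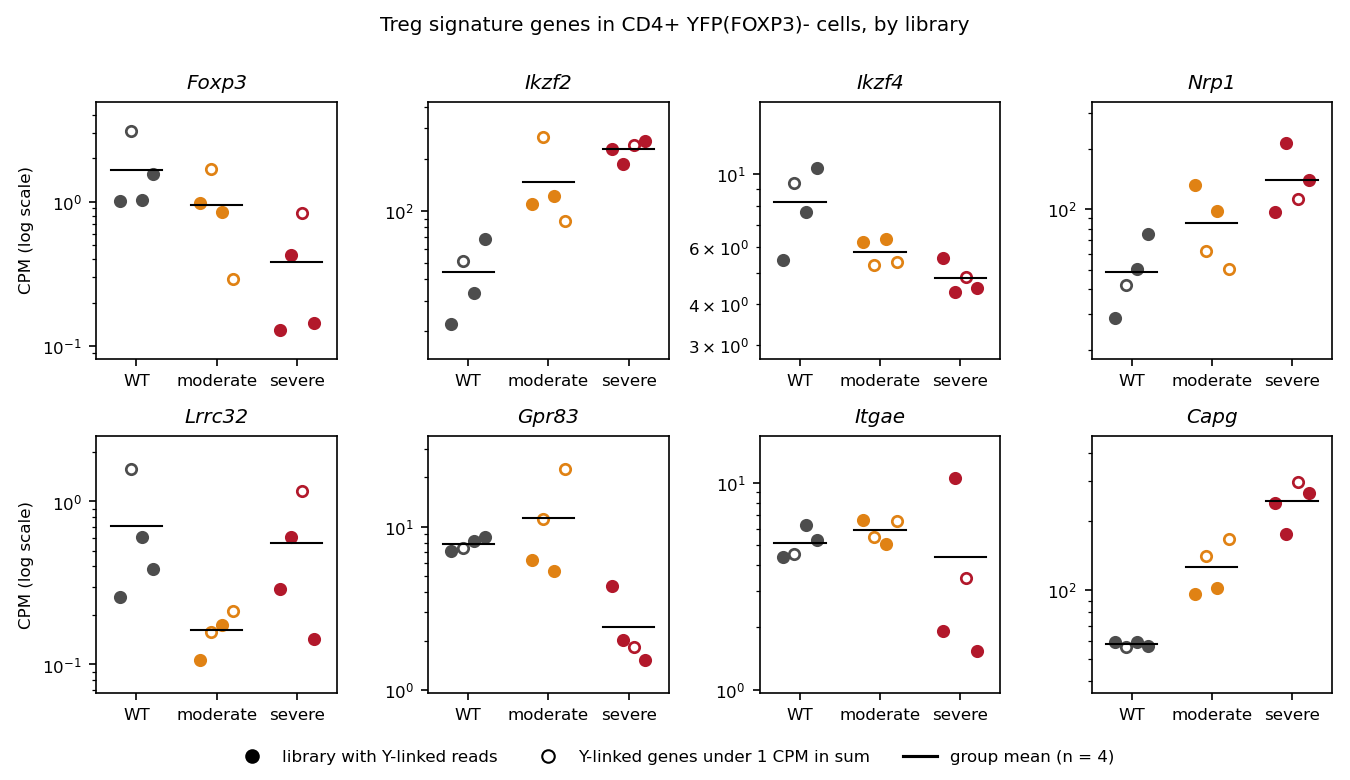
Level (CPM, read counts scaled to a common library size, log scale) of the 8 signature genes in each library, by group, with 4 libraries and a bar at the mean per group; open circles mark the 4 libraries with under 1 CPM summed over 4 Y-linked genes. *Capg* climbed from 56.6–59.1 CPM in WT to 176–296 CPM in DKO-severe libraries, while *Foxp3* stayed at or under 3.10 CPM in every library.

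Levels below are in CPM, read counts scaled to a common library size, and values by library are in the order of libraries 1 to 4 unless a sentence says otherwise. Reads on genes ranged from 29254260 to 42133536 per library, so 3 reads corresponded to 0.071 to 0.103 CPM. Summed T cell markers (*Cd3d*, *Cd3e*, *Cd3g*, *Cd4*, *Cd5*, *Cd28*, *Lck*) were at 4016 to 4955 CPM in all 12 libraries. Of these 7, 2 rose and 2 fell in DKO-severe against WT cells, beside 26.6% and 25.9% of all tested genes. In WT, DKO-moderate and DKO-severe libraries *Cd5* averaged 500, 362 and 233 CPM, *Lck* 1071, 1029 and 770 CPM and *Cd28* 341, 452 and 473 CPM. Markers of other cells were not even across groups. The 8 neutrophil markers summed to at most 2.10 CPM in WT and 3.69 CPM in DKO-moderate libraries and to 9.45, 23.0, 823 and 2242 CPM in DKO-severe libraries 4, 3, 2 and 1. The 7 B cell markers summed to 1.18 to 2.84 CPM in 3 WT libraries and to 184 CPM in WT library 3, to 2.21 to 5.90 CPM in DKO-moderate and to 18.0 to 290 CPM in DKO-severe libraries. The 6 monocyte and macrophage markers summed to 4.54 to 176, 11.7 to 48.5 and 61.3 to 352 CPM in the same order of groups. The 6 dendritic cell markers summed to 0.776 to 10.3, 1.54 to 2.91 and 11.5 to 18.7 CPM. Of the latter, *Zbtb46* averaged 0.382, 1.12 and 8.83 CPM, *Itgax* 1.84, 0.686 and 4.49 CPM and *Flt3* 0.581, 0.0845 and 0.910 CPM. *Xcr1* averaged 0.474, 0.241 and 0.213 CPM, *Clec9a* 0.0862, 0.00788 and 0.0841 CPM and *Siglech* 0.185, 0.00662 and 0.155 CPM. In DKO-severe against WT cells, 1 of the 6 dendritic cell markers passed, and 1 of the 6 monocyte and macrophage markers. The 5 plasma cell markers summed to 49.1 to 146, 75.7 to 125 and 189 to 351 CPM. Of these, *Xbp1* alone averaged 53.3, 86.3 and 136 CPM and *Jchain* 20.6, 12.5 and 105 CPM, and 2 of the 5 passed in DKO-severe against WT cells. *Cd8b1*, a CD8 T cell marker, averaged 18.4, 5.77 and 3.23 CPM, and *Cd8a* 1.79, 0.103 and 2.56 CPM. No listed marker of these cells was at 0 in all libraries of the series. Without WT library 3 and DKO-severe libraries 1 and 2, a setting chosen after the data were seen, 6 signature genes still passed in DKO-severe against WT cells: *Itgae* entered (log2 fold change -0.92, adjusted p = 0.04998, edgeR) and *Foxp3* dropped out (-1.94, adjusted p = 0.099). With terms for the neutrophil and B cell markers in the fit, which rise with the DKO-severe group, only *Gpr83* and *Capg* passed.

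Among T cell states, 5 naive T cell markers summed to 3301 to 3963, 1849 to 2848 and 1188 to 1495 CPM in WT, DKO-moderate and DKO-severe libraries. The 6 Tfh markers summed to 96.9 to 250, 440 to 1220 and 1281 to 1765 CPM. Marker RNA of both states thus moved with the groups, and its part in the results below was not tested. In bulk RNA, fewer cells of a type and less RNA per cell cannot be told apart.

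*Foxp3*, on the + strand at chrX:7573644-7595245 in GRCm38, was the gene the sort selected against through its reporter, and its reads were few in every library. WT libraries 1 to 4 held 35, 96, 36 and 57 reads (1.01, 3.10, 1.04 and 1.56 CPM), DKO-moderate libraries 37, 54, 34 and 11 reads (0.984, 1.70, 0.845 and 0.291 CPM), and DKO-severe libraries 4, 14, 35 and 6 reads (0.130, 0.426, 0.833 and 0.144 CPM). All DKO-severe libraries lay below all WT libraries, and DKO-moderate libraries overlapped both groups. Over all tested genes, 27.3% had every DKO-severe library below every WT library, as *Foxp3* and *Gpr83* did, and 24.6% had every DKO-severe library above, as *Ikzf2*, *Nrp1* and *Capg* did. Such shares were not computed for the other comparisons, so how common the separations given for them below are was not measured.

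*Foxp3* fell in DKO-severe against WT cells with a log2 fold change of -2.11 ± 0.68 (SE, n = 4 per group; adjusted p = 0.021, edgeR). The difference was -0.81 ± 0.65 in DKO-moderate against WT cells (adjusted p = 0.41, edgeR) and -1.30 ± 0.67 between DKO-severe and DKO-moderate cells (adjusted p = 0.18, edgeR). The call in DKO-severe cells rested on few reads: it was lost without WT library 2 (-1.63, adjusted p = 0.072), DKO-severe library 1 (-1.83, 0.051) or DKO-severe library 4 (-1.79, 0.058), and with the neutrophil and B cell terms (-1.69 ± 1.39, 0.44). Without DKO-severe library 3 it was -2.79 (adjusted p = 0.0079, edgeR). *Foxp3* is X-linked, and the WT and DKO-severe libraries with the most *Foxp3*, WT 2 and DKO-severe 3, were those of their group with under 1 CPM over 4 Y-linked genes. In DKO-moderate cells libraries 2 and 4 had such low Y-linked levels and held the highest and the lowest *Foxp3*. With a term for the Y-linked genes, *Foxp3* still fell in DKO-severe against WT cells (-2.12 ± 0.61, adjusted p = 0.013, edgeR).

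Other transcripts of the *Foxp3* region fell too in DKO-severe against WT cells, where 25.9% of all tested genes fell. *Flicr*, a long non-coding RNA that overlaps *Foxp3* on the same strand (chrX:7573600-7581027) and was added after its values were seen, was at 0.891, 1.23, 1.09 and 0.765 CPM in WT, 0.824, 0.473, 0.522 and 0.450 CPM in DKO-moderate and 0.162, 0.122, 0.333 and 0.192 CPM in DKO-severe libraries. All 4 DKO-severe libraries lay below the other 8. The log2 fold change of *Flicr* was -2.26 ± 0.39 in DKO-severe against WT cells (adjusted p = 5.0e-04), -0.80 ± 0.37 in DKO-moderate against WT cells (adjusted p = 0.15) and -1.46 ± 0.39 between the DKO groups (adjusted p = 0.022, edgeR throughout). The first of these calls was lost with the neutrophil and B cell terms (-1.42, adjusted p = 0.22), and the last in 6 settings, among them the same terms and leaving out DKO-moderate library 1 or DKO-severe library 1 or 4. *Flicr* and *Foxp3* share 853 of the 4577 annotated exon bases of *Foxp3*, and counting per gene can leave reads there unassigned.

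Of 3 genes listed as *Foxp3* neighbours, *Ccdc22* and *Ppp1r3f* were tested and *Cacna1f* was not, with at most 5 reads in any library. Over all tested genes, 4.74% fell in DKO-moderate and 25.9% in DKO-severe cells, both against WT, and 10.7% fell between the DKO groups. *Ppp1r3f*, a regulatory subunit of protein phosphatase 1, averaged 20.7 ± 3.08, 10.8 ± 1.63 and 6.94 ± 0.96 CPM (SD, n = 4) in WT, DKO-moderate and DKO-severe libraries, with log2 fold changes against WT of -0.94 ± 0.16 and -1.57 ± 0.16 (adjusted p = 0.0023 and 1.7e-05, edgeR). *Ccdc22*, a component of the endosomal CCC complex, averaged 56.3 ± 6.55, 35.7 ± 8.77 and 24.8 ± 2.71 CPM, with -0.66 ± 0.16 and -1.18 ± 0.16 (adjusted p = 0.014 and 9.2e-05, edgeR). Both lie on the - strand and overlap *Foxp3* in antisense at its ends, and the counting was set to a single strand. In the annotation used here, *Gm36995* on the same strand shares 2957 of the 3427 exon bases of *Ccdc22* and 2415 of the 5153 of *Ppp1r3f*. Counting per gene can leave reads there unassigned. The levels of *Ccdc22* and *Ppp1r3f* were far above those of *Foxp3*. Both also fell between DKO-moderate and DKO-severe cells (-0.64 ± 0.16, adjusted p = 0.017, and -0.52 ± 0.16, adjusted p = 0.036, edgeR), and both of these calls were lost without DKO-moderate library 1 or 3, without DKO-severe library 4, without WT library 3 and DKO-severe libraries 1 and 2, and with the neutrophil and B cell terms. The call of *Ccdc22* there was lost in 7 further settings, and its call in DKO-severe against WT cells with these terms (-0.76, adjusted p = 0.091).

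*Ikzf2* (chr1:69531214-69687245, - strand) encodes Helios, an Ikaros family zinc finger factor of Treg cells. It was at 22.1, 51.4, 33.2 and 68.9 CPM in WT, 110, 267, 121 and 86.7 CPM in DKO-moderate and 227, 187, 239 and 253 CPM in DKO-severe libraries. Every DKO library lay above every WT library, and DKO-moderate library 2 was higher than all DKO-severe libraries. The log2 fold change was 2.37 ± 0.39 in DKO-severe (adjusted p = 3.4e-04) and 1.73 ± 0.38 in DKO-moderate cells (adjusted p = 0.0090), both against WT with edgeR. The difference between the DKO groups was 0.63 ± 0.37 (adjusted p = 0.23, edgeR) and passed without DKO-moderate library 2 (1.10, adjusted p = 0.029). With the neutrophil and B cell terms the rise in DKO-severe cells was 2.05 (adjusted p = 0.074).

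*Ikzf4* (chr10:128630843-128645991, - strand) encodes Eos, a relative of Helios that works with FOXP3 as a corepressor. Its level went the other way, from 5.46, 9.39, 7.65 and 10.4 CPM in WT to 6.22, 5.26, 6.31 and 5.38 CPM in DKO-moderate and 5.55, 4.35, 4.86 and 4.48 CPM in DKO-severe libraries. Only WT library 1 reached down into the DKO range. *Ikzf4* fell in DKO-severe against WT cells (-0.77 ± 0.20, adjusted p = 0.0070, edgeR), a call that was lost with the neutrophil and B cell terms (-0.85, adjusted p = 0.19). In DKO-moderate cells the difference was -0.50 ± 0.20 (adjusted p = 0.11, edgeR), and it passed with DESeq2 (adjusted p = 0.047) and without WT library 1 (adjusted p = 0.039). DKO-severe against DKO-moderate cells stood at -0.27 ± 0.20 (adjusted p = 0.35, edgeR).

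Of the other Ikaros family genes, *Ikzf1* averaged 1094 CPM in WT and 726 CPM in DKO-severe libraries (-0.59 ± 0.13, adjusted p = 0.0021, edgeR; -0.42, adjusted p = 0.29, with the neutrophil and B cell terms). *Ikzf5* was slightly lower (-0.33 ± 0.10, adjusted p = 0.016, edgeR), a call lost when library size alone set the scale (-0.14, adjusted p = 0.18), with the neutrophil and B cell terms and without WT library 3 and DKO-severe libraries 1 and 2. *Ikzf3* was at -0.24 ± 0.23 (adjusted p = 0.40, edgeR). *Ikzf2* was thus the only member of this family to rise.

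*Nrp1* (chr8:128358604-128503363, + strand) encodes neuropilin-1, a coreceptor for semaphorins and VEGF. It was at 28.7, 41.8, 50.3 and 75.2 CPM in WT, 133, 61.8, 97.6 and 50.6 CPM in DKO-moderate and 96.8, 214, 112 and 139 CPM in DKO-severe libraries. DKO-severe libraries lay above all WT libraries, and DKO-moderate libraries overlapped both. The log2 fold change was 1.52 ± 0.36 in DKO-severe (adjusted p = 0.0039) and 0.81 ± 0.36 in DKO-moderate cells (adjusted p = 0.14), both against WT with edgeR, and 0.71 ± 0.35 between the DKO groups (adjusted p = 0.16). The DKO-moderate value passed with limma voom (1.11, adjusted p = 0.021), and the DKO-severe call was lost with the neutrophil and B cell terms (2.08, adjusted p = 0.067). *Nrp2*, its paralog, was low and fell (1.08 against 2.23 CPM, -1.05 ± 0.32, adjusted p = 0.016, edgeR), a call that was lost without DKO-severe library 3 or 4 (-0.87 and -0.92) and with the same terms (-1.33). *Sema4a*, which encodes a semaphorin that binds neuropilin-1, fell from 177 to 52.3 CPM (-1.76 ± 0.26, adjusted p = 1.5e-04, edgeR; -1.16, adjusted p = 0.15, with the same terms).

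*Lrrc32* (chr7:98489283-98502181, + strand) encodes GARP, which holds latent TGF-beta on the surface of activated Treg cells. WT libraries had 9, 49, 21 and 14 reads (0.259, 1.58, 0.604 and 0.383 CPM), DKO-moderate libraries 4, 5, 7 and 8 reads (0.106, 0.158, 0.174 and 0.212 CPM) and DKO-severe libraries 9, 20, 49 and 6 reads (0.292, 0.609, 1.17 and 0.144 CPM). DKO-moderate libraries lay below all WT libraries, and DKO-severe libraries spanned both groups. As for *Foxp3*, the highest WT and DKO-severe values were in WT library 2 and DKO-severe library 3.

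The difference of *Lrrc32* in DKO-moderate against WT cells was -2.09 ± 0.71 (adjusted p = 0.063, edgeR), and 5 alternatives brought it past the threshold, among them DESeq2 (-2.10, adjusted p = 0.030) and the Y-linked term (-2.16, adjusted p = 0.027). In DKO-severe against WT cells it was -0.34 ± 0.66 (adjusted p = 0.68, edgeR), with a sign that turned without WT library 2 (0.415). DKO-severe against DKO-moderate cells were at 1.75 ± 0.71 (adjusted p = 0.097, edgeR), and 1.91 with the Y-linked term (adjusted p = 0.035). *Nrros*, which encodes a GARP paralog, fell from 107 to 50.1 CPM in DKO-severe against WT cells (-1.09 ± 0.18, adjusted p = 3.5e-04, edgeR). *Itgb8*, whose product pairs with integrin alpha V to release TGF-beta from GARP, rose from 1.83 CPM in WT to 13.8 and 27.5 CPM in DKO-moderate and DKO-severe libraries (2.91 ± 0.48 and 3.90 ± 0.50, adjusted p = 0.0019 and 6.1e-05, edgeR; 3.53 and 4.53 without WT library 4). *Tgfb1* was at 119 and 142 CPM in WT and DKO-severe libraries (0.25 ± 0.12, adjusted p = 0.10, edgeR).

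*Gpr83* (chr9:14860210-14870789, + strand) encodes a G protein-coupled receptor. It was even in WT libraries at 7.10, 7.36, 8.22 and 8.67 CPM, spread in DKO-moderate libraries at 6.30, 11.1, 5.34 and 22.4 CPM, and low in DKO-severe libraries at 4.35, 2.04, 1.83 and 1.53 CPM. All DKO-severe libraries lay below the other 8. The log2 fold change was -1.69 ± 0.45 against WT (adjusted p = 0.0076) and -2.21 ± 0.46 against DKO-moderate cells (adjusted p = 0.0081, edgeR), and the latter was -1.61 without DKO-moderate library 4 (adjusted p = 0.013). With the neutrophil and B cell terms the values were -3.28 (adjusted p = 0.020) and -3.58 (adjusted p = 0.078, edgeR), so that the latter no longer passed. In DKO-moderate against WT cells it was 0.53 ± 0.43 (adjusted p = 0.43, edgeR), a value set by DKO-moderate library 4, without which it was -0.05.

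*Itgae* (chr11:73090583-73147446, + strand) encodes the alpha E integrin CD103, a receptor for E-cadherin. It was at 4.37, 4.52, 6.21 and 5.28 CPM in WT, 6.62, 5.49, 5.04 and 6.52 CPM in DKO-moderate and 1.91, 10.5, 3.45 and 1.53 CPM in DKO-severe libraries. DKO-severe library 2 was above all others, and the other 3 DKO-severe libraries were below all WT and DKO-moderate libraries. DKO-severe library 2 also held the most B cell marker RNA (290 CPM) and the most *Nrp1*. It held 823 CPM of neutrophil and 348 CPM of monocyte and macrophage markers as well. Its 2 CD8 T cell markers summed to 13.15 CPM, the most of any DKO library, beside 16.8 to 26.7 CPM in WT libraries. The WT sums were mostly *Cd8b1* (16.6 to 20.3 CPM). *Cd8a* alone was higher in DKO-severe library 2 (230 reads) than in any other library. In WT libraries *Cd8a* had a median of 0.25 CPM and reached at most 6.47 CPM. The part of any of these cells in the level of *Itgae* was not tested. The log2 fold change was -0.23 ± 0.49 in DKO-severe (adjusted p = 0.71) and 0.22 ± 0.49 in DKO-moderate cells (adjusted p = 0.79), both against WT with edgeR, and -0.44 ± 0.49 between the DKO groups (adjusted p = 0.53). Without DKO-severe library 2 the differences were -1.12 against WT (adjusted p = 0.0072) and -1.32 against DKO-moderate cells (adjusted p = 0.0090). *Itgb7*, its beta chain partner, was at 941 and 927 CPM in WT and DKO-severe libraries (-0.02 ± 0.16, adjusted p = 0.92, edgeR).

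*Capg* (chr6:72544391-72562983, + strand) encodes a gelsolin family protein that caps actin filaments. It was at 59.1, 56.6, 59.1 and 57.2 CPM in WT, 96.2, 142, 102 and 168 CPM in DKO-moderate and 241, 176, 296 and 267 CPM in DKO-severe libraries. No groups overlapped, and WT libraries had an SD of 1.3 CPM. The log2 fold change was 2.08 ± 0.19 in DKO-severe against WT (adjusted p = 9.9e-06), 1.13 ± 0.19 in DKO-moderate against WT (adjusted p = 0.0019) and 0.95 ± 0.18 between the DKO groups (adjusted p = 0.0068, edgeR throughout). Only the last call was lost in any setting, with the neutrophil and B cell terms (1.06, adjusted p = 0.17). WT library 3, which held 184 CPM of B cell and 176 CPM of monocyte and macrophage markers, was at the same 59.1 CPM of *Capg* as WT library 1. Its neutrophil markers summed to only 2.10 CPM, against 9.45 to 2242 CPM in DKO-severe libraries. The part of admixed cells in the level of *Capg* was not tested. *Gsn*, which encodes gelsolin, was at 61.4, 58.9 and 119 CPM on average in WT, DKO-moderate and DKO-severe libraries (0.95 ± 0.14 in DKO-severe against WT, adjusted p = 1.5e-04, and -0.06 ± 0.14 in DKO-moderate against WT, adjusted p = 0.79, edgeR).

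**Figure D2:**
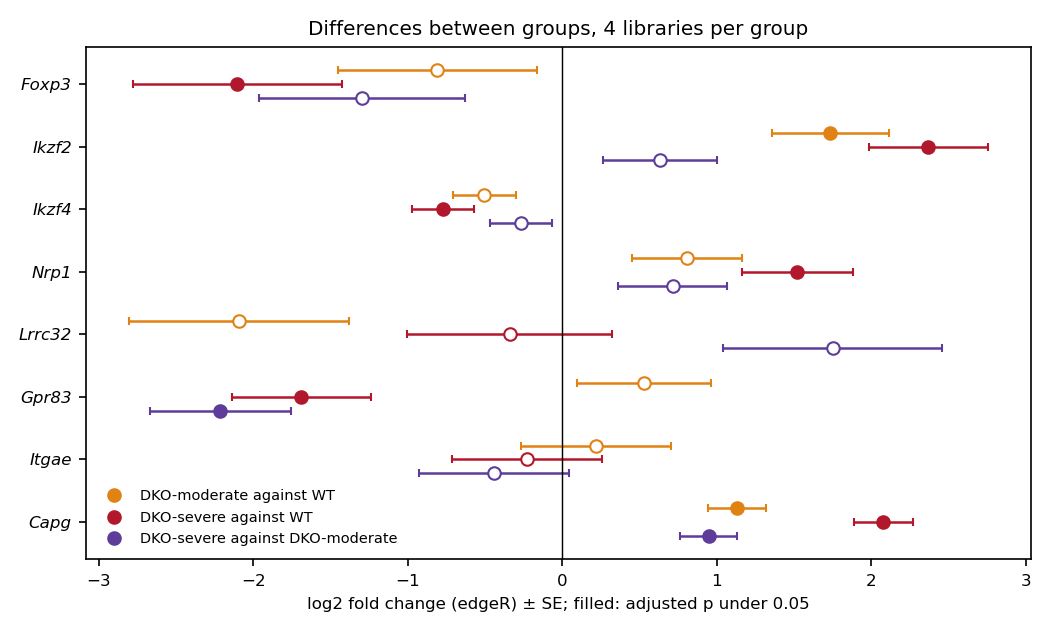
Log2 fold change ± SE from edgeR for each signature gene in the 3 comparisons of 4 libraries with 4, with filled points where the adjusted p was under 0.05. *Ikzf2* and *Capg* are filled on the right in both comparisons with WT, *Foxp3*, *Ikzf4* and *Gpr83* are filled on the left in DKO-severe against WT cells, and *Lrrc32* has wide errors.

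Promoter sequence is shown for the 4 signature genes with an entry in the RefSeq promoter table (GRCm38.p6), because TET enzymes act on CpG sites. Each run is the 250 bases before an annotated start on the + strand, and capitals mark CpG dinucleotides. They lie at chrX:7579426-7579675 (*Foxp3*, the more 5′ of 2 starts), chr8:128358823-128359072 (*Nrp1*), chr9:14859960-14860209 (*Gpr83*) and chr6:72549397-72549646 (*Capg*).
Foxp3: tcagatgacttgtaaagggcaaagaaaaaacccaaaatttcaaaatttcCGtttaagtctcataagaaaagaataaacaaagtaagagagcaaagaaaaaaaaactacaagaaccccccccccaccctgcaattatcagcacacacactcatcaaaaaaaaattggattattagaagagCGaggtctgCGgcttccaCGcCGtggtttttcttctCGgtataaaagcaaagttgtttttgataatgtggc
Nrp1: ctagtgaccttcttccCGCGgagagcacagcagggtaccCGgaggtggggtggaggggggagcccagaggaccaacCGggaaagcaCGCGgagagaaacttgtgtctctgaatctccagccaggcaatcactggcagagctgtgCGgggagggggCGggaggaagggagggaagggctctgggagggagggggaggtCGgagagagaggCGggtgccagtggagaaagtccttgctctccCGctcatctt
Gpr83: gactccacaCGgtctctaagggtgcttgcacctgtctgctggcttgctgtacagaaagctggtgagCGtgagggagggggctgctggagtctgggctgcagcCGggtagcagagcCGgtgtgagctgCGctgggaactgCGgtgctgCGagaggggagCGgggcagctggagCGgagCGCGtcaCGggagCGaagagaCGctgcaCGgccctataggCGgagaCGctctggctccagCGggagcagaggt
Capg: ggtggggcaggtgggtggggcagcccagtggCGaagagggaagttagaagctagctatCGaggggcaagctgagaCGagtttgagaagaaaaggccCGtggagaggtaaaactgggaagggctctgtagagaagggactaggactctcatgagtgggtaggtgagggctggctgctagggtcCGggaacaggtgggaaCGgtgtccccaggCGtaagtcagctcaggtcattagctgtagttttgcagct

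The *Foxp3* window held 6 CpG, that of *Capg* 7, that of *Nrp1* 11 and that of *Gpr83* 18, against a median of 6 over 32851 windows of the same length (quartiles 2 and 16). Only the *Gpr83* window lay outside the quartiles, and methylation was not measured in these libraries. The motif TGTTTAC, a forkhead factor motif, was absent on both strands of all 4 windows and is present in 3.17% of all windows. The motif TATAAA was present on the gene strand in the last 50 bases of the *Foxp3* window, beginning 32 bases before the start, as in 2.63% of all windows.

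To set the other genes against *Foxp3* within a library, their reads were divided by the reads of *Foxp3*, which needs no scaling between libraries. *Foxp3* was the gene the sort selected against, and it fell in DKO-severe cells. Any gene that fell less thus rises on this ratio, which is not separate evidence of a change in that gene. WT libraries had 16.6 to 44.2 *Ikzf2* reads for each *Foxp3* read, DKO-moderate libraries 111 to 298 and DKO-severe libraries 287 to 1760. The median was 27.0, 150 and 1095, and DKO libraries lay above all WT libraries. For *Capg* the ranges were 18.3 to 58.8, 83.2 to 577 and 356 to 1858 reads. For *Nrp1* they were 13.5 to 48.6, 36.3 to 174 and 134 to 968 reads. All DKO libraries lay above all WT libraries for *Capg*. For *Nrp1*, DKO-severe libraries did, and DKO-moderate libraries overlapped WT libraries.

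*Ikzf4*, which fell, gave 3.03 to 7.39 reads per *Foxp3* read in WT and 5.83 to 42.8 in DKO-severe libraries, and these overlapped. *Gpr83* gave 2.38 to 7.94, 6.32 to 77.0 and 2.20 to 33.5 reads in the order WT, DKO-moderate and DKO-severe. *Itgae* gave 1.46 to 6.0, 3.22 to 22.4 and 4.14 to 24.7 reads. *Lrrc32* was at 0.246 to 0.583 reads per *Foxp3* read in WT, 0.0926 to 0.727 in DKO-moderate and 1.0 to 2.25 in DKO-severe libraries, so that DKO-severe libraries lay above all others. The level of *Lrrc32* itself did not pass in DKO-severe against WT cells (-0.34 ± 0.66, adjusted p = 0.68, edgeR). With 4 to 14 *Foxp3* reads in 3 of the DKO-severe libraries, these ratios carry a large counting error.

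**Figure D3:**
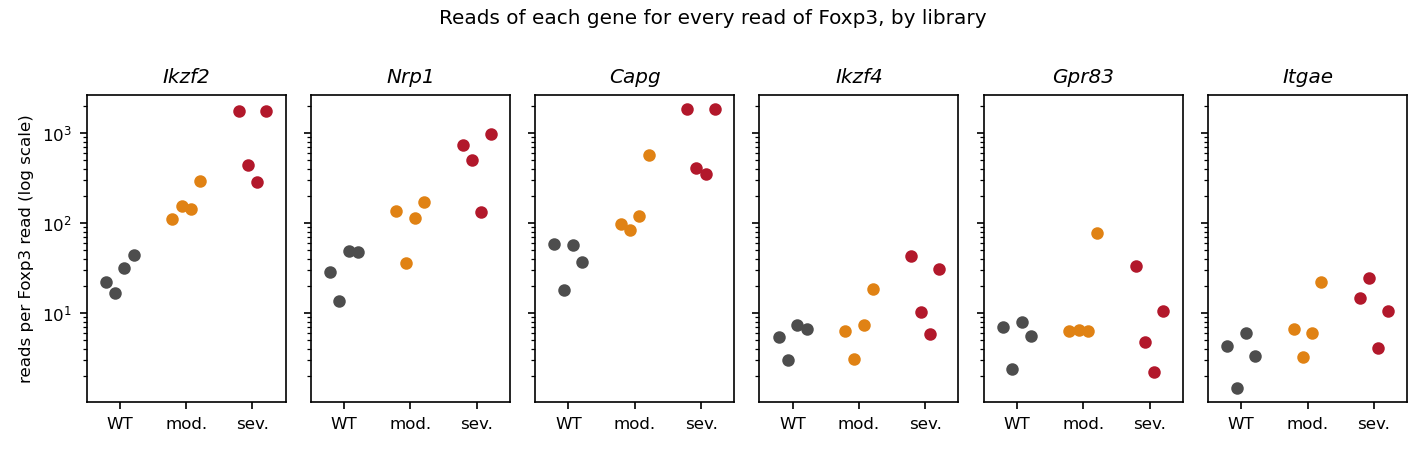
Reads of 6 signature genes for every read of *Foxp3* (log scale) in each library, 4 libraries per group, with mod. for DKO-moderate and sev. for DKO-severe. *Ikzf2* goes from 16.6–44.2 in WT to 287–1760 in DKO-severe libraries with no overlap, while *Ikzf4*, *Gpr83* and *Itgae* overlap between WT and DKO-severe libraries. *Foxp3* itself fell in DKO-severe against WT cells, so a gene that fell less rises on this scale.

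Levels between genes were compared per kilobase of annotated exon. On this scale WT means were 22.9 CPM per kb for *Capg*, 5.01 for *Nrp1*, 3.78 for *Ikzf2*, 1.54 for *Gpr83*, 1.37 for *Ikzf4*, 1.11 for *Itgae*, 0.366 for *Foxp3* and 0.151 for *Lrrc32*. *Capg* stood clear of the rest in all WT libraries (22.4 to 23.4 CPM per kb). *Nrp1* and *Ikzf2* overlapped, as did *Foxp3* and *Lrrc32*. *Ikzf4* overlapped both *Gpr83* and *Itgae*, which did not overlap each other.

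In DKO-severe libraries the order of the means was *Capg* (96.8 CPM per kb), *Ikzf2* (19.5), *Nrp1* (14.4), *Itgae* (0.951), *Ikzf4* (0.802), *Gpr83* (0.479), *Lrrc32* (0.118) and *Foxp3* (0.0837). *Ikzf2* and *Nrp1* again overlapped (16.1 to 21.8 against 9.90 to 21.9 CPM per kb), and so did the 3 genes after them and the last 2. In DKO-moderate libraries *Capg* (50.2), *Ikzf2* (12.6) and *Nrp1* (8.76 CPM per kb) led in the same order, followed by *Gpr83* (2.22), *Itgae* (1.29), *Ikzf4* (0.966), *Foxp3* (0.209) and *Lrrc32* (0.0347). There *Ikzf2* and *Nrp1* overlapped, and so did *Gpr83* with both *Itgae* and *Ikzf4*, whereas *Foxp3* and *Lrrc32* did not.

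Other genes associated with Treg cells were followed from 4 lists. Of 16 Treg genes shared with activated T cells, 14 rose and none fell in DKO-severe against WT cells (median log2 fold change 2.32), 12 rose in DKO-moderate against WT cells (1.51), and 6 rose between the DKO groups (0.72), beside 26.6%, 12.3% and 9.41% of all tested genes. *Fgl2*, a secreted fibrinogen-like immunoregulatory protein, rose from 11.9 CPM in WT to 53.4 and 265 CPM in DKO-moderate and DKO-severe libraries (4.48 ± 0.47 in DKO-severe against WT, adjusted p = 2.0e-05, edgeR). *Tigit*, an inhibitory receptor, rose from 10.4 to 73.1 and 185 CPM (4.16 ± 0.46, adjusted p = 2.8e-05, edgeR), and *Tnfrsf4*, which encodes OX40, rose from 19.9 to 121 and 262 CPM (3.72 ± 0.36, adjusted p = 1.3e-05, edgeR). *Nt5e*, which encodes the ectonucleotidase CD73, rose from 68.5 to 303 and 583 CPM (3.09 ± 0.18, adjusted p = 3.1e-06, edgeR). With the neutrophil and B cell terms *Fgl2*, *Tigit* and *Tnfrsf4* still rose in DKO-severe against WT cells, by 3.54, 3.17 and 2.93 on the log2 scale (adjusted p = 0.012, 0.019 and 0.0090, edgeR). Between the DKO groups none of *Fgl2*, *Tigit*, *Tnfrsf4* and *Nt5e* passed with these terms (1.57, 0.565, 0.524 and 1.15, adjusted p = 0.31, 0.73, 0.68 and 0.13, edgeR). The calls of *Tigit* and *Tnfrsf4* there were also lost in several settings that left out 1 library. The 2 members of this list that did not pass in DKO-severe against WT cells were *Klrg1* (0.06 ± 0.54) and *Prdm1* (0.03 ± 0.32).

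Of 8 other Treg genes, 4 rose and 1 fell in DKO-severe against WT cells (median 1.26), beside 26.6% and 25.9% of all tested genes. In DKO-moderate against WT cells 2 rose and none fell (median 0.38), beside 12.3% and 4.74%. *Ccr8*, a chemokine receptor, was at 4.31, 5.04 and 13.7 CPM on average in WT, DKO-moderate and DKO-severe libraries and was the only gene of this list to pass between the DKO groups (1.44 ± 0.28, adjusted p = 0.0069, edgeR). *Izumo1r*, which encodes folate receptor 4, rose from 153 CPM in WT to 513 and 387 CPM (1.75 ± 0.30 and 1.34 ± 0.30, adjusted p = 0.0024 and 0.0026, edgeR). *Socs2*, an inhibitor of cytokine signaling, rose from 7.74 to 18.5 and 19.8 CPM (1.25 ± 0.36 and 1.36 ± 0.36, adjusted p = 0.031 and 0.0074, edgeR). The calls of *Il1rl1*, the receptor of IL-33 (1.27 ± 0.43, adjusted p = 0.025), and *Ecm1* (-0.75 ± 0.25, adjusted p = 0.026, edgeR) in DKO-severe cells were lost in several settings that left out 1 library, and that of *Socs2* in DKO-moderate cells likewise. With the neutrophil and B cell terms, none of the 5 calls in DKO-severe against WT cells passed (edgeR, adjusted p from 0.071 to 0.32), with values of 1.66 for *Ccr8*, 1.32 for *Socs2*, 1.05 for *Izumo1r*, 0.997 for *Il1rl1* and -1.24 for *Ecm1*. The value of *Ccr8* between the DKO groups was 1.45 with these terms (adjusted p = 0.24).

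Of 4 genes known to be lower in Treg than in conventional T cells, 3 fell in DKO-severe against WT cells (median -1.53), beside 25.9% of all tested genes. *Satb1*, a chromatin organizer that FOXP3 represses, went from 910 CPM in WT to 450 and 231 CPM (-1.01 ± 0.19 and -1.98 ± 0.19, adjusted p = 0.0040 and 1.4e-05, edgeR). *Il7r*, the IL-7 receptor, averaged 783 and 271 CPM (-1.53 ± 0.34, adjusted p = 0.0028) and *Pde3b*, a phosphodiesterase, 282 and 97.8 CPM (-1.53 ± 0.34, adjusted p = 0.0025, edgeR) in WT and DKO-severe libraries. Both of these calls were lost with the neutrophil and B cell terms (-1.31, adjusted p = 0.20, and -0.41, adjusted p = 0.60). *Il2* rose in DKO-moderate against WT cells (3.04 against 1.65 CPM, 0.88 ± 0.28, adjusted p = 0.048, edgeR), a call lost in most settings that left out 1 library. *Satb1* and *Il7r* are also abundant in naive T cells, whose markers fell over the same groups.

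Of the 10 partners and paralogs described above beside their relatives, 2 rose and 5 fell in DKO-severe against WT cells (median -0.28). Over all tested genes, 26.6% rose and 25.9% fell in that comparison. In DKO-moderate against WT cells *Itgb8* rose and *Ikzf1* fell, beside 12.3% and 4.74% of all tested genes. The *Ikzf1* call there (-0.40 ± 0.13, adjusted p = 0.049, edgeR) was lost under most alternatives. From DKO-moderate to DKO-severe cells *Gsn* rose (1.02 ± 0.14, adjusted p = 0.0025) and *Sema4a* (-1.16 ± 0.25, adjusted p = 0.010) and *Nrros* (-0.73 ± 0.18, adjusted p = 0.016, edgeR) fell. Of all tested genes, 9.41% rose and 10.7% fell between these groups. None of the 3 genes passed with the neutrophil and B cell terms (0.98, -0.63 and -0.86, adjusted p from 0.13 to 0.59, edgeR). The *Nrros* call there was also lost without DKO-moderate library 1 or DKO-severe library 3 or 4.

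**Figure D4:**
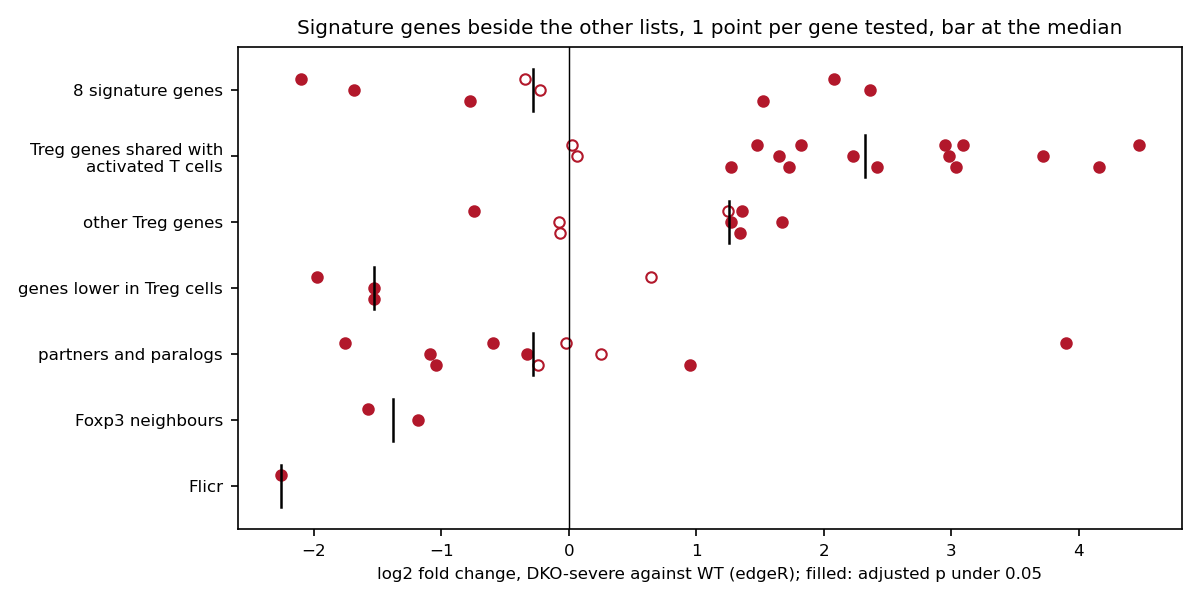
Change in DKO-severe against WT cells (edgeR, log2 scale) for every tested gene of the signature and the other lists, 1 point per gene, filled where the adjusted p was under 0.05, with a bar at the median of each list. The signature genes split from -2.11 to 2.37 around a median of -0.29, whereas Treg genes shared with activated T cells had a median of 2.32.

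The signature genes also varied from mouse to mouse within a group. After group means of log2 CPM had been subtracted, *Foxp3* and *Lrrc32* had a Pearson r of 0.64 over the 12 libraries, *Ikzf2* and *Ikzf4* of 0.55, *Gpr83* and *Capg* of 0.53, *Foxp3* and *Ikzf2* of 0.52, *Nrp1* and *Capg* of -0.74, and *Nrp1* and *Gpr83* of -0.54. The other 22 of the 28 pairs lay between -0.45 (*Foxp3* and *Gpr83*) and 0.46 (*Ikzf4* and *Nrp1*). On the same measure, among 11859 genes with a mean of at least 1 CPM, those most like *Foxp3* included *Ccdc66* (r = 0.91), *Gm20114* (0.91), *Pfkfb3* (0.89) and *Peg13* (0.87). The genes most like *Ikzf2* were *Inppl1* (0.95) and *Cul4a* (0.92), those most like *Ikzf4* were *Pcbp2* (0.89) and *Rsu1* (0.88), and those most like *Nrp1* were *Runx2* (0.97) and *Tada1* (0.94). For *Lrrc32* they were *Pbx2* (0.87) and *Snhg8* (0.83), for *Gpr83* *Tomm22* (0.97) and *Tnfrsf18* (0.96), for *Itgae* *Zcchc24* (0.97) and *Xkrx* (0.95), and for *Capg* *Sumo3* (0.96) and *Prkcdbp* (0.96). *Tnfrsf18*, which encodes GITR, is the only gene here that also stands in a Treg list above. These values describe 12 libraries that share depth and mixture of cells within each library, and the highest of 11859 values is high by selection.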

How the data were processed

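RNA of CD4+ YFP(FOXP3)- cells was made into directional libraries (NEBNext Ultra II), and the authors aligned reads to mm10 with STAR 2.7.11, dropped those that mapped to several places and used htseq-count (reverse strand). They deposited raw counts without normalization, which were used as they stand. The annotation behind the counts is not given in the sources used here. Coordinates and exon lengths are from GENCODE (GRCm38). Records naming no gene (18.5% to 23.7% of a library) were left out.

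Genes with at least 10 reads over the libraries of a group were tested, 16035 of 26608. An edgeR 4.0.16 model (quasi-likelihood F test, TMM scaling, R 4.3.3) held the 3 groups. P-values were adjusted by Benjamini-Hochberg over these genes, with a threshold of 0.05. CPM are TMM-scaled, log2 CPM used a prior count of 2, and SE belongs to the log2 fold change. The code was tested on simulated data. DESeq2 1.42.0, limma 3.58.1 (voom), other scalings and filters, covariates, a replicate block and leaving out each library were alternatives.

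The signature genes and the other lists were chosen with earlier results of these data known, and so were the tests. Named were the 8 signature genes, the called genes of lists of 10 or fewer, the 4 largest changes of the longer list, and the genes most like each signature gene; other genes were named beside them after their values were seen. A gene that this rule names is not reported here. Older symbols were matched through RefSeq synonyms. Libraries of a group were mice that the labels number 1 to 4. Libraries of the same group differed by more than sampling noise (lowest chi-square per degree of freedom 22.9), so each counted once.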

Additional observations from a re-analysis of the deposited data

How the results depend on the processing

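Each of the 24 fold changes of the signature genes was recomputed under 23 alternatives. Of the 552 values, 521 kept their direction and side of the threshold, 14 passed newly, 10 no longer passed and 7 turned sign. The sign turned only for values that had not passed. *Lrrc32* in DKO-severe against WT cells turned to 0.285 with terms for neutrophil and B cell markers, to 0.415 without WT library 2 and to 0.021 without DKO-severe library 4, and leaving out 1 library gave -0.974 to 0.415. *Itgae* in the same comparison turned to 0.019 and 0.095 without DKO-severe libraries 1 and 4 (range -1.118 to 0.095). *Gpr83* in DKO-moderate against WT cells turned to -0.208 with limma voom and -0.051 without DKO-moderate library 4 (range -0.051 to 0.76). The causes were not tested.

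With the neutrophil and B cell terms, 2 signature genes passed in DKO-severe against WT cells in place of 6, and 2259 of all genes in place of 8428. Between the DKO groups 0 signature genes passed by edgeR with these terms in place of 2 (2 at an unadjusted p under 0.05; 2 by DESeq2 and 2 by limma voom, both without the terms), and 39 of all genes in place of 3217. The summed neutrophil markers were higher in every DKO-severe library than in any other, although 2 of the 8 markers overlapped. DESeq2 passed 4 signature genes in place of 2 in DKO-moderate against WT cells. In DKO-severe against DKO-moderate cells limma voom passed 6126 genes, and 2055 passed without WT library 3 and DKO-severe libraries 1 and 2. Leaving out 1 library gave 1616 to 2920 genes in DKO-moderate against WT cells in place of 2734 (fewest without WT library 1, and 1707 without WT library 2) and 1646 to 3670 between the DKO groups. It gave 5 to 7, 2 to 3 and 2 to 3 signature genes in DKO-severe against WT, DKO-moderate against WT and DKO-severe against DKO-moderate cells.

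Scaling by library size alone moved the all-gene median in DKO-severe against WT cells to 0.18 (log2) and the split to 5460 higher and 2756 lower, from 4270 and 4158. DESeq2's size factors gave 4766 and 3483. For the DKO groups these scalings gave 1886 and 1021, and 1823 and 1237, from 1509 and 1708. No signature gene turned sign under either scaling.

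The replicate numbers did not pair the mice: the correlation of deviations from group means had a median of -0.098 over 12 pairs with the same number and 0.030 over 36 pairs with different numbers. With the replicate number as a block, 6, 2 and 2 signature genes and 7794, 2201 and 2321 of all genes passed in DKO-severe against WT, DKO-moderate against WT and DKO-severe against DKO-moderate cells, and the block changed no call of a signature gene. Of the 47 calls of other listed genes, 28 were lost with the neutrophil and B cell terms, 8 without WT library 3 and DKO-severe libraries 1 and 2, and none turned sign in 1081 values. Depth limited *Foxp3* and *Lrrc32*, which had as few as 4 reads in a library.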
